A study of Mus musculus with 6 samples.

Results

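The transcripts described here are those of the NF-κB transcription factor subunits and of a set of their feedback inhibitors in TuBo breast cancer cells with and without overexpression of p140Cap. The members are the rows of the count table whose symbol is Nfkb1, Nfkb2, Rela, Relb, Rel, Nfkbia, Nfkbie, Nfkbiz, Tnfaip3 or Birc3. All 10 symbols were found once among 21960 genes, and 9 of the 10 had enough reads for a test. TuBo is an epithelial cell line that came from the mammary tumor of a mouse of the BALB/c-MMTV-NeuT strain, in which the rat neu oncogene is driven by the MMTV promoter. RNA-Seq was compared between 3 mock libraries, labelled wt, and 3 libraries of cells that overexpress p140Cap, an adaptor protein, from a pBabe-puro retrovirus after puromycin selection. The p140Cap cells are a pool of clones grown from single cells, so p140Cap expression and descent from these clones cannot be told apart in this design. No age, time point or cytokine treatment is given for either group, and one label text speaks of mice where the others speak of cell lines.

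NF-κB dimers are assembled from 5 related proteins. RelA (Rela), RelB (Relb) and c-Rel (Rel) carry activation domains, while p50 and p52 are made from the precursors p105 (Nfkb1) and p100 (Nfkb2). In unstimulated cells, IκB proteins such as IκBα (Nfkbia) and IκBε (Nfkbie) hold the dimers in the cytoplasm, until the IKK kinase complex marks them for ubiquitination and degradation. Several genes of the inhibitors are themselves induced by NF-κB and so close a negative feedback loop. In mammary tumor cells the pathway is known for its part in survival and in the production of inflammatory cytokines.

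NF-κB dimers bind DNA at κB sites, and the stretches before member genes that match the κB consensus are shown first. RefSeq promoter windows on GRCm38.p6, the assembly also called mm10, run from 250 bases before an annotated transcription start to 50 bases after it, and 10 windows matched 7 of the 10 genes. Windows were not matched for Nfkb1, Relb and Nfkbiz. Each window was searched on both strands for the κB consensus, with overlapping matches merged. The consensus was found for 5 of these 7 genes, Nfkbia, Nfkbie, Tnfaip3, Nfkb2 and Rel, and not for Rela or Birc3. Over all 27025 genes of the promoter table, 9.55% held it in a window, and 8.46% of the 32851 windows did. Each line gives 30 bases of the gene's own strand, 5′ to 3′, all of them before the annotated start, with the match in capitals.
Nfkbia, chr12:55492657-55492686, minus strand: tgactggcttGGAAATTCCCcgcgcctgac
Nfkbie, chr17:45555584-45555613, plus strand: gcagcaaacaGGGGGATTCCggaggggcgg
Tnfaip3, chr10:19015411-19015440, minus strand: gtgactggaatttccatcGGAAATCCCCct
Nfkb2, chr19:46304688-46304717, plus strand: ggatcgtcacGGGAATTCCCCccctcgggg
Rel, chr11:23771042-23771071, minus strand: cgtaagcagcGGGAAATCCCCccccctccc
Nfkb2 and Tnfaip3 each had a further match before the same start. The other Nfkb2 starts with a window also had a match, and the other Tnfaip3 start with a window had none. The first base of the Nfkb2 gene, 46300994, lies before all its windows and was not searched. In all, 7 of the 10 member windows held a match. A match is a description of letters and not of binding, which was not measured.

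Reads on genes per library ranged from 13770385 to 75506562, and every mock library was deeper than every p140Cap library. Reads were counted per gene and are given here as CPM, the reads on a gene relative to the library total after TMM scaling. Srcin1, which encodes p140Cap, was at 12.8 to 16.6 CPM in mock and at 2244 to 2520 CPM in p140Cap libraries. The quasi-likelihood test of edgeR was applied to each gene, and a gene was called at a Benjamini-Hochberg adjusted p under 0.05. The comparison is broad, since 71.1% of the 11800 genes tested were called, 35.2% higher and 35.9% lower in p140Cap cells. Leukocyte markers Ptprc, Cd3e, Adgre1 and Lyz2 had 0 reads in all 6 libraries, which allows a level of up to 0.0392 to 0.220 CPM depending on the library, for counting error only. Epithelial markers Epcam, Cdh1, Krt8 and Krt18 were each at 537 CPM or more in every library, and Krt19 had too few reads for a test. The epithelial markers moved apart between groups, as Krt7 fell from a mean of 803 to 447 CPM (log2 fold change -0.84, adjusted p = 9.45e-10, edgeR), Epcam rose by 0.42 and Krt18 by 0.24 log2 units. Their part in the results was not tested. Of 6 immune markers found once in the table, Cd14 and Cd68 were expressed, and the summed level of the 6 was 99.7 to 107 CPM in mock and 245 to 257 CPM in p140Cap libraries, nearly all of it Cd14. Both were called higher, Cd14 by 1.29 log2 units (adjusted p = 1.43e-12, edgeR) and Cd68 by 0.83 log2 units (adjusted p = 0.000119, edgeR), and their part in the results was not tested. Summed fibroblast markers were at 9.97 to 10.5 CPM in mock and 11.3 to 14.1 CPM in p140Cap libraries, with Col1a2, Dcn and Lum at 0 reads and Col1a1 called higher, from a mean of 2.97 to 5.02 CPM (log2 fold change 0.80, adjusted p = 0.000244, edgeR). Summed endothelial markers were under 1 CPM throughout, with Kdr at 0 reads and Pecam1 called higher, from a mean of 0.271 to 0.645 CPM (log2 fold change 1.25, adjusted p = 0.0133, edgeR). The part of these markers in the results was not tested.

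The inhibitors Nfkbia, Nfkbie, Nfkbiz and Tnfaip3 were higher in p140Cap cells, as was the subunit gene Relb, whereas the subunit genes Rela and Nfkb1 were lower. Of the 9 members tested, 7 were called, which is 77.8% against a background of 71.1% of all genes, so the share called does not set the members apart. The same 7 genes did not overlap between groups, 5 higher and 2 lower, where 73.4% of all genes did not overlap, 36.3% with p140Cap libraries higher and 37.2% with p140Cap libraries lower. Among the 5 subunit genes 1 rose, 2 fell and 2 were not called, and among the 4 inhibitor genes tested all rose. The median log2 fold change of the 9 genes was 0.36, while that of all genes tested was 0.00. In bulk RNA, fewer cells with a transcript and less of it per cell cannot be told apart.

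**Figure D1:**
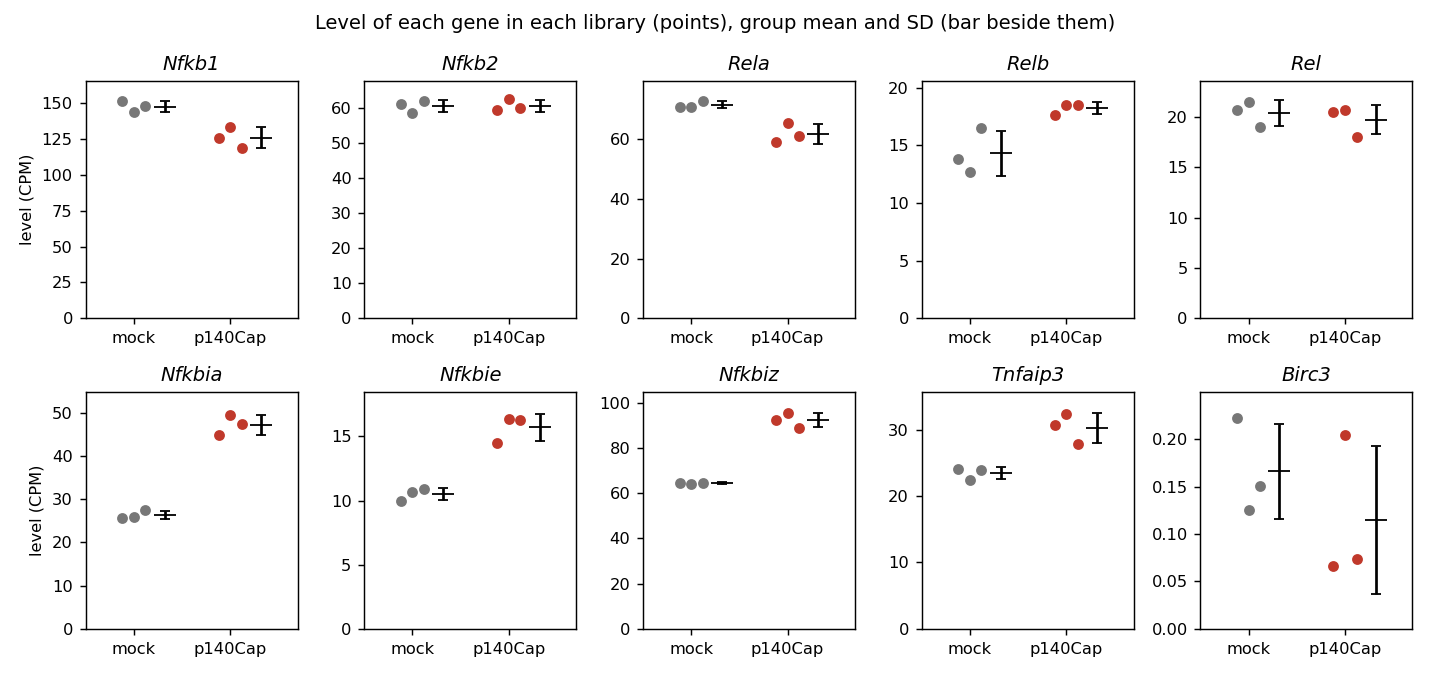
Level in CPM (vertical axes, from 0) of each of the 10 genes in each of the 3 mock (grey) and 3 p140Cap (red) libraries, with the group mean and SD beside the points. The 4 inhibitors Nfkbia, Nfkbie, Nfkbiz and Tnfaip3 lie higher in every p140Cap library than in any mock library, Nfkb1 and Rela lie lower, and the groups overlap for Nfkb2, Rel and Birc3.

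Nfkbia (ENSMUSG00000021025, chr12:55489409-55492647 of GRCm38.p6, minus strand) had the largest change of the 9 genes tested. It encodes IκBα, the inhibitor that is degraded and resynthesized within one round of NF-κB activation. Its level was 25.6, 25.9 and 27.4 CPM in the mock libraries and 44.9, 49.5 and 47.4 CPM in the p140Cap libraries. The groups did not overlap, and the lowest p140Cap library was far above the highest mock library. This was a log2 fold change of 0.85, or an increase of 80.0%, with SE 0.06 and adjusted p = 1.98e-09 in edgeR's quasi-likelihood test. Of all genes tested, 13.7% had a larger absolute change, while for Nfkbie, Nfkbiz, Tnfaip3 and Relb this share was 25.6%, 30.5%, 44.2% and 45.3%.

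Nfkbie (ENSMUSG00000023947, chr17:45555700-45563169, plus strand) encodes IκBε, an inhibitor that, like IκBα, retains Rel dimers in the cytoplasm. It was less abundant, at 9.96, 10.6 and 10.9 CPM in mock and 14.5, 16.3 and 16.3 CPM in p140Cap libraries. All p140Cap libraries were again above all mock libraries, and the change of 0.59 on the log2 scale had SE 0.08 and adjusted p = 6.22e-06 in edgeR. Nfkbiz (ENSMUSG00000035356, chr16:55811375-55838954, minus strand) encodes IκBζ, an atypical nuclear IκB that acts on p50 at secondary response genes, as an inhibitor or a coactivator. The mock libraries were nearly equal at 64.6, 64.2 and 64.7 CPM, and the p140Cap libraries stood at 92.5, 95.4 and 88.9 CPM. Without overlap between groups, the change was 0.52 on the log2 scale, with SE 0.05 and adjusted p = 6.32e-08 in edgeR.

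Tnfaip3 (ENSMUSG00000019850, chr10:19000910-19015410, minus strand) encodes A20, a ubiquitin-editing enzyme that shuts off signaling upstream of IKK. It was at 24.1, 22.4 and 23.9 CPM in mock and at 30.7, 32.3 and 27.8 CPM in p140Cap libraries. Every p140Cap library was above every mock library, although p140Cap replicate 3 was closer to mock than the other two, and the change was 0.37 on the log2 scale, with SE 0.07 and adjusted p = 0.00013 in edgeR. Birc3 (ENSMUSG00000032000, chr9:7847468-7873205, minus strand), which encodes the ubiquitin ligase cIAP2, was close to the detection limit. Mock libraries held 17, 5 and 5 of its reads, while p140Cap libraries held 1, 3 and 1. Pooled over groups, the p140Cap level was 0.637 times the mock level (95% exact counting interval 0.192 to 1.68, counting error only), so no difference was detectable at this depth. Its paralog Birc2, which encodes cIAP1, was expressed at 32.8 to 36.7 CPM in mock and 38.8 to 45.3 CPM in p140Cap libraries. Birc2 was called higher in p140Cap cells (log2 fold change 0.28, adjusted p = 0.00109, edgeR). The few reads on Birc3 are uncertain where reads could be split between these similar genes.

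Among the subunits, Nfkb1 and Rela were lower by similar amounts. Nfkb1 (ENSMUSG00000028163, chr3:135584655-135691969, minus strand), the source of p105 and p50, was at 152, 144 and 148 CPM in mock and at 126, 133 and 119 CPM in p140Cap libraries. The lowest mock library lay above the highest p140Cap library. The change was -0.23 on the log2 scale, with SE 0.05 and adjusted p = 0.000702 in edgeR's test. Rela (ENSMUSG00000024927, chr19:5637442-5648134, plus strand), which encodes the p65 activating subunit, was at 70.8, 71.0 and 72.9 CPM in mock and at 59.0, 65.4 and 61.1 CPM in p140Cap libraries. The highest p140Cap library, replicate 2, remained below the lowest mock library, and the change was -0.21 on the log2 scale, with SE 0.05 and adjusted p = 0.00176 in edgeR. Both decreases were smaller than the median absolute change of all genes tested, 0.32.

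Relb (ENSMUSG00000002983, chr7:19606217-19629438, minus strand), the partner of p52 in the non-canonical pathway, moved the other way. It was at 13.8, 12.6 and 16.5 CPM in mock and at 17.7, 18.5 and 18.5 CPM in p140Cap libraries. Mock replicate 3 came close to the p140Cap libraries without reaching them, and the log2 fold change of 0.36 had the largest error of the called members (SE 0.09, adjusted p = 0.00234, edgeR). Nfkb2 (ENSMUSG00000025225, chr19:46300994-46312400, plus strand), the source of p100 and p52, was at 61.2, 58.7 and 62.0 CPM in mock and at 59.5, 62.5 and 59.9 CPM in p140Cap libraries. These ranges overlapped, and the 95% interval of the log2 fold change ran from -0.11 to 0.11 (adjusted p = 0.996, edgeR), with a sign that turned between alternatives. Rel (ENSMUSG00000020275, chr11:23736847-23770969, minus strand), which encodes c-Rel, also overlapped between groups, at 20.7, 21.5 and 19.01 CPM in mock and 20.5, 20.7 and 18.1 CPM in p140Cap libraries. Its log2 fold change was -0.05 with a 95% interval of -0.21 to 0.11 (adjusted p = 0.594, edgeR).

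**Figure D2:**
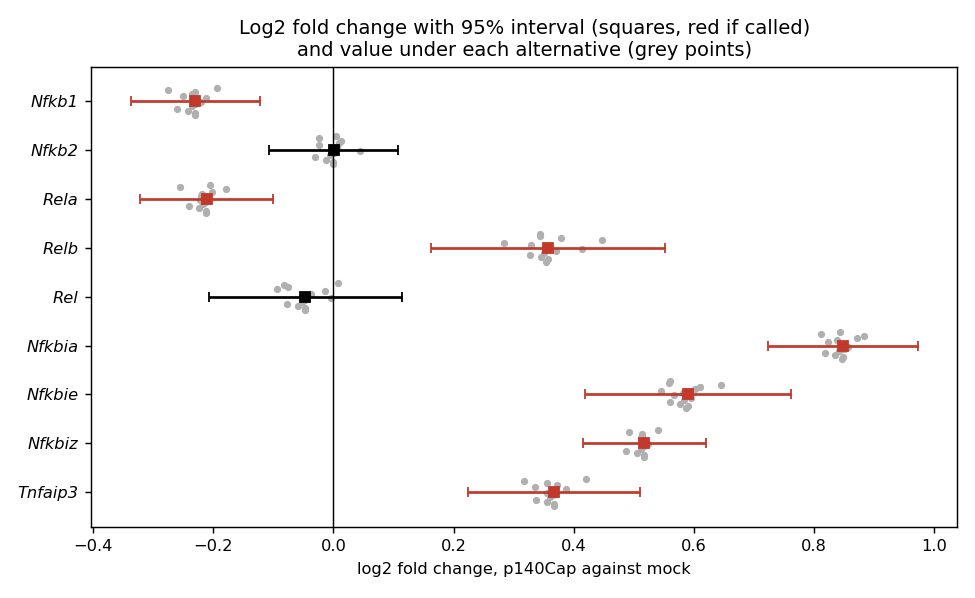
Log2 fold change of the 9 tested genes (horizontal axis, p140Cap against mock), as squares with 95% intervals, red where called, with the value under each of 14 alternative analyses as grey points. Nfkbia stands highest at 0.85, Nfkb1 lowest at -0.23, and the intervals of Nfkb2 and Rel span 0.

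All 7 calls were kept with DESeq2, with limma-voom, with other scaling factors and filters, with libraries thinned to one depth and with each library left out. Annotated genes on the other strand share exonic sequence with Nfkb1, Nfkb2, Rela, Nfkbia and Tnfaip3, and the sources used here do not state whether reads were assigned by strand, so reads of such partners may be included. Among the called members, Relb, Nfkbie and Nfkbiz have no annotated overlap.

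Rela and Nfkb2 both lie on chromosome 19, whose genes were lower as a group in p140Cap cells. Its 424 tested genes had a median log2 fold change of -0.34, and the medians of the other chromosomes lay between -0.07 and 0.06. Rela, at -0.21, was thus less reduced than the median gene of its chromosome, and 61.1% of the chromosome's tested genes had a lower value. Nfkb2, whose estimate was near 0, had 79.7% of the genes of the chromosome below it. Nfkb1, with a decrease close to that of Rela, lies on chromosome 3, where the median was 0.05. The part of the chromosome in the value of Rela was not tested. With TMM factors taken from genes outside chromosome 19, the calls of the members did not change.

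**Figure D3:**
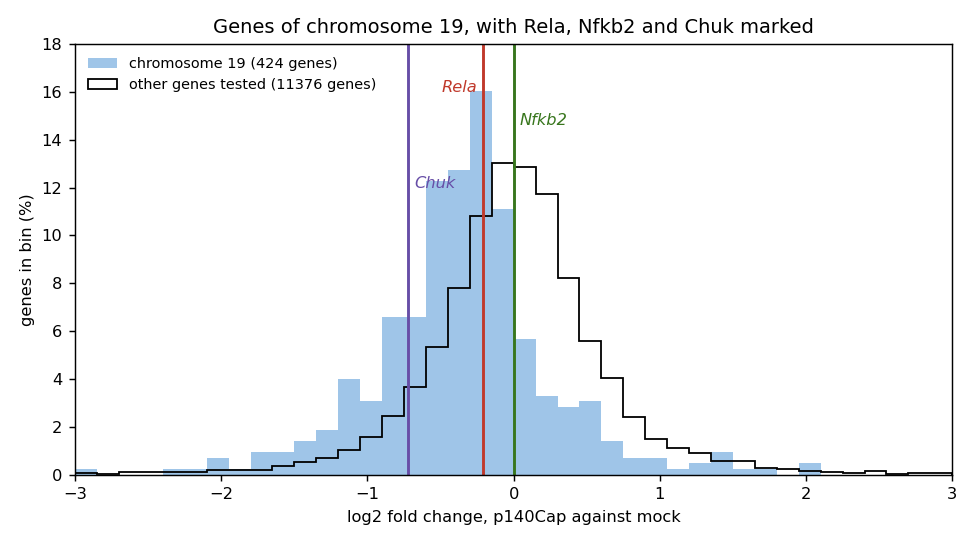
Percent of genes (vertical axis) by log2 fold change (horizontal axis, shown from -3 to 3) for the 424 tested genes of chromosome 19 (blue) and the 11376 other genes tested (black outline). The blue distribution is shifted to lower values, with Chuk (-0.72) below its median and Rela (-0.21) and Nfkb2 (near 0) above it.

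Levels of different genes were compared per length, as CPM per kb of the canonical transcript in the GENCODE annotation. In mock cells, Nfkb1 was the most abundant of the 10 transcripts with 31.4 ± 0.831 CPM per kb, followed by Rela with 26.3 ± 0.433 and Nfkbia with 16.7 ± 0.618 (SD, n = 3 libraries). Nfkbiz, Nfkb2, Nfkbie, Relb, Tnfaip3, Rel and Birc3 followed in this order, and only Nfkbie and Relb had overlapping ranges. In p140Cap cells Nfkbia came first with 29.9 ± 1.47 CPM per kb, above Nfkb1 with 26.8 ± 1.54, and Nfkbiz with 22.8 ± 0.795 stood level with Rela at 22.8 ± 1.200 (SD, n = 3 libraries). The ranges of Nfkbia and Nfkb1 in these cells were separated by a narrow gap, and those of Nfkbiz and Rela overlapped. The order of Nfkb1 depends on the length used. Over all annotated exons of a gene, Rela led in mock cells and Nfkb1 fell to the third position, level with Nfkbiz, while Nfkbia still led in p140Cap cells.

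Per kb of the canonical transcript, Nfkb1 made up 42.7% ± 0.742 of the 5 subunits in mock and 40.3% ± 0.968 in p140Cap cells, and Rela 35.8% ± 0.586 and 34.2% ± 0.811 (SD, n = 3 libraries each). The share of Relb was 5.72% ± 0.679 in mock and 8.09% ± 0.335 in p140Cap cells, that of Nfkb2 12.2% ± 0.0956 and 13.5% ± 0.257, and that of Rel 3.57% ± 0.289 and 3.83% ± 0.221. These shares depend on the length used. Over all annotated exons, Nfkb1 made up 24.7% ± 0.536 in mock and 23.1% ± 0.686 in p140Cap cells and Rela 47.04% ± 0.562 and 44.4% ± 0.837, so that Rela took the first place, with Nfkb1 and Rela again lower and Nfkb2 and Relb higher in p140Cap cells. Back on the canonical length, the 4 inhibitors were summed per 100 units of the 5 subunits. This gave 53.6, 55.5 and 55.2 in the mock libraries and 94.7, 94.95 and 97.3 in the p140Cap libraries. All 4 inhibitor genes were called higher, while Nfkb1 and Rela, the largest part of the subunit sum, were called lower. The separation of the groups thus follows from the genes summed, and the values are given as a description. Nfkbiz, which can also act as a coactivator, is counted as an inhibitor here.

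**Figure D4:**
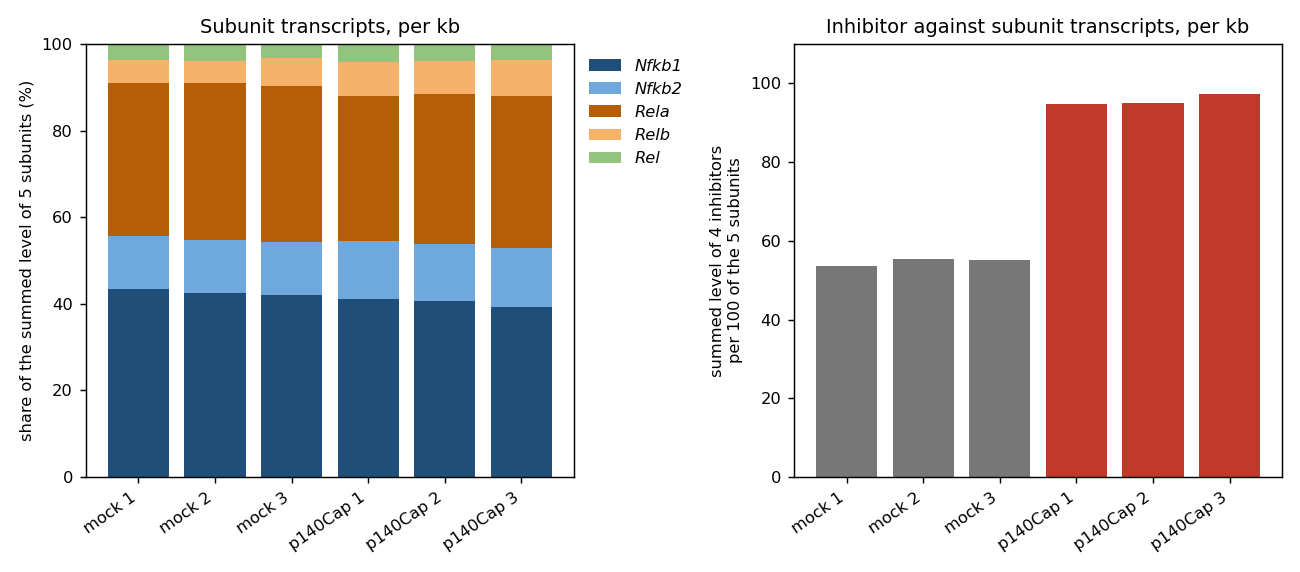
Left, share of each subunit (percent, vertical axis) in the summed level per kb of the 5 subunits in each library. Right, summed level per kb of Nfkbia, Nfkbie, Nfkbiz and Tnfaip3 per 100 units of the 5 subunits, in mock (grey, 53.6 to 55.5) and p140Cap libraries (red, 94.7 to 97.3). These inhibitor genes were all called higher, and Nfkb1 and Rela lower, so the separation follows from the genes summed.

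Ratios of reads within a library do not depend on the scaling between libraries. For each 100 reads on Rela, the mock libraries held 36.1, 36.6 and 37.6 reads on Nfkbia, and the p140Cap libraries held 76.1, 75.7 and 77.5. The difference between groups was 1.06 on the log2 scale, and the ratio was nearly equal among libraries of a group. Per 100 Nfkb1 reads, the Nfkb2 reads numbered 41.0 ± 0.813 in mock and 48.2 ± 1.95 in p140Cap libraries, and per 100 Rela reads, the Relb reads numbered 20.0 ± 2.40 and 29.5 ± 1.04 (SD, n = 3 each). Of 8 such ratios computed, 7 did not overlap between groups and that of Rel to Rela did. In 6 of the 8, a gene called higher was set over a gene called lower, so their separation follows from the pairs chosen, and the ratios are given as a description.

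Of the 5 genes with κB letters shown above, Nfkbia, Nfkbie and Tnfaip3 were called higher, none was called lower, and Nfkb2 and Rel were not called. Nfkb1, called lower, and Relb and Nfkbiz, called higher, had no window to search. Rela, called lower, had a window without a match. Across all tested genes with a promoter window, 40.4% of the 1121 genes with a match were called higher and 31.4% lower, and of the 8002 genes without a match 35.1% were called higher and 36.5% lower. These shares are given as a description, and their difference was not tested.

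The rest of the pathway moved in both directions. In the list of IKK kinases, related kinases and their partner proteins, all 12 genes were tested, 7 rose and 2 fell, with a median log2 fold change of 0.18. Of the 7 that rose, Ikbkg, Tab1 and Tab2 encode partner proteins and not kinases. The share called in this list, 75%, was near the 71.1% of all genes, of which 35.2% were higher and 35.9% lower, and the lists that follow are to be read against the same shares. Chuk, which encodes the catalytic subunit IKKα and lies on chromosome 19, fell from 107 ± 4.82 to 64.7 ± 4.49 CPM (log2 fold change -0.72, SE 0.06, adjusted p = 9.34e-09, edgeR, SD over n = 3). Map3k7, the gene of the IKK-activating kinase TAK1, fell with a log2 fold change of -0.38. Map3k8, the kinase TPL2 that is bound and restrained by p105, rose from 2.69 ± 0.386 to 5.99 ± 0.115 CPM, or by 1.12 log2 units, with SE 0.13 and adjusted p = 1.13e-06 in edgeR. Ikbke, a kinase related to IKK, and Ikbkg, the scaffold NEMO, had log2 fold changes of 0.70 and 0.34.

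Of 19 adaptor and ubiquitin enzyme genes 18 were tested, with 10 higher, 4 lower (77.8% called) and a median of 0.17. Irak2, Traf3ip2 and Irak4, which act downstream of interleukin and Toll-like receptors, rose by 0.60, 0.54 and 0.41 log2 units. Traf3, which restrains the kinase NIK of the non-canonical pathway, fell by 0.66 on the log2 scale, and Ripk1 and Ube2n fell by 0.48 each. Of 14 further inhibitor genes 13 were tested, with 5 higher, 4 lower (69.2% called) and a median of -0.08. Tnip2, a partner of A20, Bcl3, a nuclear IκB, and Nfkbid, another, rose by 0.77, 0.69 and 0.43 log2 units, while Nkrf, a transcriptional repressor, fell by 1.36. Nkiras1, which encodes a binding partner of IκB, fell by 0.46 and the deubiquitinase gene Otulin by 0.29 on the same scale. The calls of Nfkbid and Nkiras1 were lost with DESeq2 (adjusted p = 0.0688 and 0.0703).

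Of 20 receptor genes 12 were tested, with 6 higher, 5 lower (91.7% called) and a median of 0.04. Tnfrsf11a, which encodes RANK, rose from 49.7 ± 0.721 to 77.7 ± 3.70 CPM (SD, n = 3 libraries each), and Tlr2 and Tlr6 had log2 fold changes of 0.60 and 0.55. Tlr1 was lower by a log2 fold change of -0.61, Ltbr, the lymphotoxin β receptor, by -0.29, and Il17ra by -0.21, a call that was lost with DESeq2 (adjusted p = 0.063). Of 13 ligand genes 11, Tnf, Il1a and Il1b among them, had too few reads for a test. The single ligand called was Tnfsf12, named because its list held no other, which was at 0.235 to 0.327 CPM in mock and 0.749 to 1.25 CPM in p140Cap libraries.

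Of 30 known NF-κB target genes 17 were tested, with 5 higher, 6 lower and a median of -0.01, and the 64.7% called were below the 71.1% of all genes. The chemokine gene Cxcl1 rose from 7.34 ± 0.328 to 17.3 ± 1.04 CPM, the early response gene Ier3 from 384 ± 5.14 to 717 ± 10.5 CPM, and the lipocalin gene Lcn2 from 3367 ± 149 to 5192 ± 157 CPM (SD, n = 3 libraries each). Plau, C3 and Tnfaip2 went down, with log2 fold changes of -0.83, -0.56 and -0.21. Icam1, Vcam1, Il6 and Ccl2 were among the 13 target genes with too few reads. The lists were not tested against other genes.

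**Figure D5:**
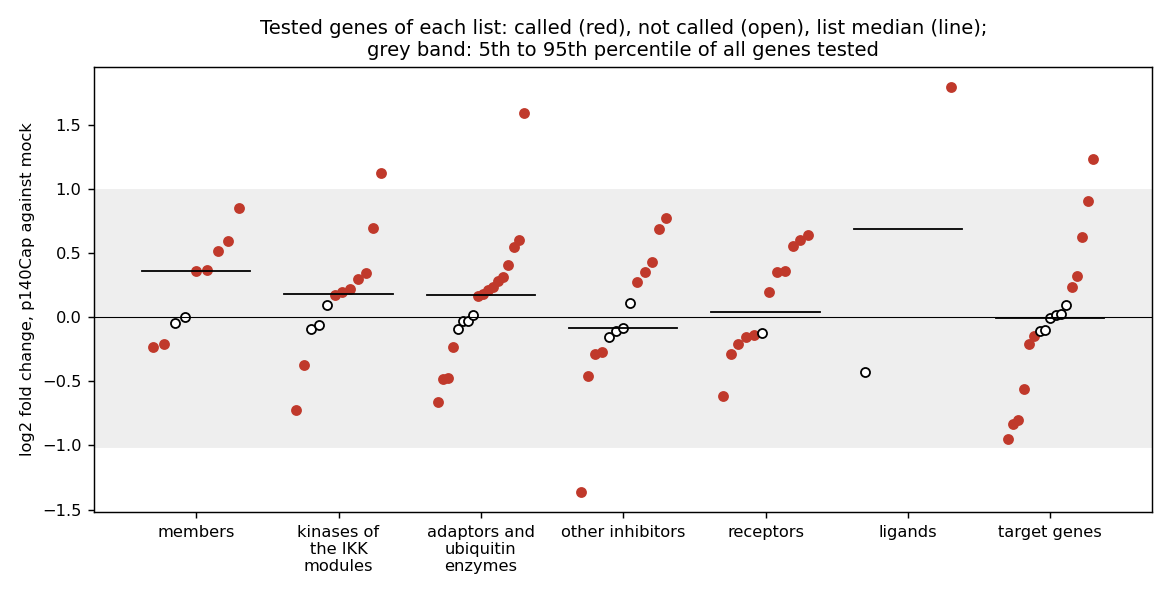
Log2 fold change (vertical axis) of every tested gene in the member list and the 6 pathway lists (that of the kinases holds their partner proteins too), red where called and open where not, with the list median as a line and the range from the 5th to the 95th percentile of all genes tested as a grey band. Each list but that of the ligands holds called genes on both sides of 0. The member list has the highest median of the lists with more than 2 tested genes, 0.36, which is the value of Relb. All lists were chosen with earlier results of these data known.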

How the data were processed

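RNA-Seq of 3 mock and 3 p140Cap libraries of TuBo cells was analysed. The authors deposited counts, whole numbers of reads per gene without normalization, with replicates kept apart. Per the labels, RNA was poly(A)-selected, and the submitters' processing notes name STAR 2.5, RSEM and the build mm10. RSEM gives estimated counts, so the deposited counts may have been rounded. The paper describes stranded libraries run on a NextSeq 500 with samples and controls mixed in each flow cell, and names GRCm39 as mouse genome. Gene positions and promoter windows given here are those of RefSeq on GRCm38.p6. Transcript lengths, overlapping genes and chromosomes were taken from GENCODE (GRCm39), to which 98.6% of the genes matched by Ensembl identifier.

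Counts were tested in R 4.3.3 by edgeR 4.0.16 (quasi-likelihood), using TMM factors, filterByExpr by group, condition as the sole term and Benjamini-Hochberg adjustment over the 11800 genes tested, at a threshold of 0.05. Standard errors were derived from the fold change and its F statistic. The scripts were tested on simulated counts in which few genes changed, so a difference as broad as the one seen here was not simulated. Total reads were between 13770385 and 75506562 per library, and the common coefficient of biological variation was 4.57%. Libraries of 1 group differed by more than sampling noise, with mean chi-square values between 1.75 and 10.7. The sources do not say whether replicates were separate cultures. The p-values set the group difference against the spread between libraries of a group, which may be technical.

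The members and the 6 pathway lists were chosen with earlier results of these data known. Named genes are the members, Srcin1 and, in each list, up to 3 higher and 3 lower called genes with the largest change and a mean log2 CPM of at least 1. Birc2, Tnfsf12 and genes named only for being under the filter were named after their values were seen. Alternatives were DESeq2 1.42.0, limma-voom (limma 3.58.1), RLE factors, TMM factors without chromosome 19, no low-count filter, a minimum of 10 reads per library, thinning to the smallest total, the replicate number as a block and leaving out each library. The length of all annotated exons was added after seeing the data. Of the immune markers, 1 is not reported here.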

Additional observations from a re-analysis of the deposited data

How the results depend on the processing

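Over 14 alternatives, 7 members were called each time, 5 higher and 2 lower, and their log2 fold changes kept their direction. All genes called numbered between 7851 and 8716. Of the 38 named genes other than Srcin1, 33 kept direction and call throughout. The exceptions were Nfkbid, Nkiras1 and Il17ra, whose calls were lost with DESeq2 and without single libraries (highest adjusted p 0.107, 0.0703 and 0.154, edgeR or DESeq2), and Nfkb2 and Rel, which were not called under any alternative. Nfkb2 turned from 0.00036 to -0.012 with TMM factors without chromosome 19, -0.030 without a filter on low counts, -0.0058 with at least 10 reads in every library, and between -0.025 and 0.013 with each library left out. Rel lay between -0.093 and 0.0083 with each library left out, positive only without p140Cap replicate 3. The causes were not tested. The count of ligands called was 2 without the filter (both higher) and with thinned libraries (1 higher, 1 lower), and 1 to 2 with each library left out, where it was 2 without p140Cap replicate 1 and without p140Cap replicate 3. With the length of all annotated exons, chosen after seeing the data, the inhibitors per 100 units of subunits were 64.5 in mock and 112 in p140Cap cells, against 54.7 and 95.7. With replicate number as a block, 7 members were called and 8034 genes in all, against 8388. Same-numbered libraries did not deviate together (correlations -0.106 to -0.0299), and 0 of 6 libraries correlated best with its own number, so the numbers were not taken as pairs. Birc3 and 11 of 13 ligands had too few reads for the filter. Without the filter, Birc3 had a log2 fold change of -0.63 and an adjusted p of 0.526 (edgeR).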
